A study of Sus scrofa with 3 samples.

Results

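The change from cap to secretory stage in the last deciduous molar germ was measured as the log2 signal on the E60 array minus that on the E40 array, for 23999 probe sets. These are 2 of the 3 arrays of the series, and the other one, E50, lies between them and divides the 20 days into a first step (E40 to E50) and a second step (E50 to E60). Each array carried total RNA of a pool of molar germs from Wuzhishan miniature pigs, dissected with the dental lamina out of the mandibles of 1 litter. The labels place the E40 germ at the cap stage without a secondary dental lamina, the E50 germ at the bell stage when the secondary lamina starts, and the E60 germ at the secretory stage, which the study's methods call late bell. The labels give no treatment and no genotype. With 1 pooled array per stage there was no replicate, no error over litters and no test. Every difference below is a difference between arrays, and "over 2-fold" marks its size only. Stage, litter and array cannot be told apart.

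In the cap stage the dental epithelium folds over a condensed mesenchyme, and cells of both layers divide and are still being patterned. By the secretory stage the inner epithelium has become ameloblasts, tall polarised cells that export enamel proteins through the endoplasmic reticulum and Golgi, and the facing mesenchyme has become odontoblasts that lay down dentin. Such a change can come as a switch within days or as a slow shift over the whole period. A gene that moves by less than 2-fold in each step is missed by stage-to-stage comparisons although its net change may exceed 2-fold, and the E60 versus E40 comparison recovers it.

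The stages were first compared with markers. AMBN, which encodes ameloblastin of the enamel matrix, gave signals of 59.8, 2675 and 29942 on the E40, E50 and E60 arrays, the order kept throughout. AMELX, amelogenin, had 22.0, 2218 and 16881, and its E40 signal lay under the array's floor (the 25th percentile, to which lower signals were raised). ENAM, enamelin, stood at 13.1, 26.1 and 6972, and MMP20, the protease of secretory enamel, at 53.0, 213 and 5407. DSPP, the dentin sialophosphoprotein precursor, was under the floor on E40 and reached 4195 on E60. These 5 genes were bright on the E60 array and dim or under the floor on E40. Of the 7 enamel genes measured 4 were over 2-fold higher and 1 over 2-fold lower. KLK4, the protease of enamel maturation, had 75.1 on E40 and was under the floor on the other 2 arrays. Of the 15 dentin and bone mineral genes measured 3 were over 2-fold higher (DSPP, ALPL and CLEC3B) and 3 lower (MGP, BGLAP and TNC), with a median log2 difference of 0.18. With array medians set equal BGLAP (-0.97) and TNC (-0.91) were within 2-fold, and BGLAP also after quantile normalization (-0.95). CDH1, the epithelial cadherin, had 4286, 4566 and 4765, and VIM, vimentin of mesenchymal cells, 19634, 18933 and 20460.3. Of the dental epithelium markers measured 0 of 6 differed over 2-fold, and of the dental mesenchyme markers 1 of 5 did, PRRX1, which was lower (log2 -2.19).

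The E40 sample also held a strong skeletal muscle signal. Of the 39 muscle genes measured, 34 were over 2-fold lower on E60, with a median log2 difference of -4.10, nearly all of it in the first step (median -4.06). ACTC1, cardiac alpha actin, had 11061, 144 and 32.2, and MYLPF, a fast muscle myosin light chain, had 8766, 60.9 and 48.8. IVL and SPRP, cornified envelope genes of stratified epithelium, were also lower after E40, with 3255, 14.2 and 27.4 for IVL and 4321, 45.3 and 51.7 for SPRP. The keratinised and barrier epithelium list as a whole did not follow them: of its 16 genes measured 4 were over 2-fold lower and 1 higher, with a median log2 difference of -0.12 (0.07 after quantile normalization). In pooled tissue, fewer cells of a type and less RNA per cell cannot be told apart. Leaving out the genes of both lists kept the net and gradual counts within 1.5 times, but this removes listed genes only. The part of such tissue in the other differences was not tested.

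Over the whole period 840 probe sets were over 2-fold higher on E60 (3.50% of all) and 2343 were over 2-fold lower (9.76%). Of the 3183 differing probe sets 26.4% were higher. The 95% Wilson interval, 24.9% to 27.9%, covers counting only and treats probe sets as independent, although some share a gene. Of the lower probe sets, 594 were under the floor on E60, and of the higher ones 137 were under the floor on E40, so their folds are lower bounds. Most of the lower probe sets were dim: 1621 of them lay in the dimmer 50% of the array, against 318 of the higher ones. The split into higher and lower depended on the scaling. The deposited values share a trimmed mean, whereas the median signal was 164 on E40 and 132 on E60. With medians set equal the counts were 1628 higher and 1467 lower (52.6% higher), after quantile normalization they were 1477 and 1631 (47.5% higher), and with the mean of 13 housekeeping genes set equal they were 894 and 2237 (28.6% higher). Net list medians given below were read against all 3 scalings, and those that turned are named. Medians of the single steps were read as deposited only.

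**Figure D1:**
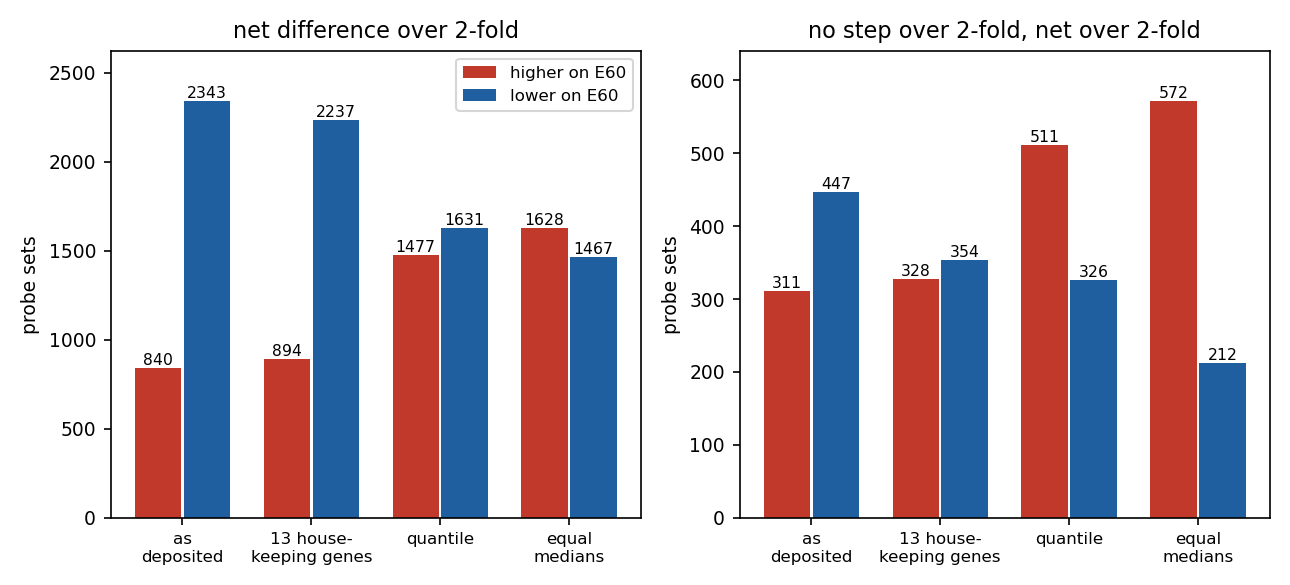
Bars give the number of probe sets (vertical axis) over 2-fold higher (red) or lower (blue) on E60 than on E40, as deposited and under 3 other scalings, for all net differences (left) and for those with no step over 2-fold (right). As deposited, lower probe sets outnumber higher ones in both panels (2343 against 840, and 447 against 311), and with equal medians they do not (1467 against 1628, and 212 against 572).

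The net differences were reached by different routes, counted here as deposited. The median signal was lowest on E50 (164, 125 and 132 on E40, E50 and E60), and so was the floor. Both bear on the size of each step, and routes with a step over 2-fold were not recounted under the other scalings. Among the lower probe sets 1540 (65.7%) passed 2-fold in the first step only and 155 (6.62%) in the second step only. Among the higher ones 225 (26.8%) passed in the first step only and 249 (29.6%) in the second. Both steps exceeded 2-fold in the same direction in 42 higher and 29 lower probe sets. TGFB1, the growth factor TGF-beta 1, was among the first, with 263, 596 and 1826 on E40, E50 and E60. A further 170 lower probe sets dropped below their E60 level on E50 and came back by over 2-fold, as did 3 higher ones in the opposite sense. In 12 probe sets the first step went over 2-fold against the net difference. The remaining route, with neither step over 2-fold but a net difference over 2-fold, held 311 higher and 447 lower probe sets, which is 37.0% of all higher and 19.1% of all lower ones, and the most frequent route among the higher ones.

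**Figure D2:**
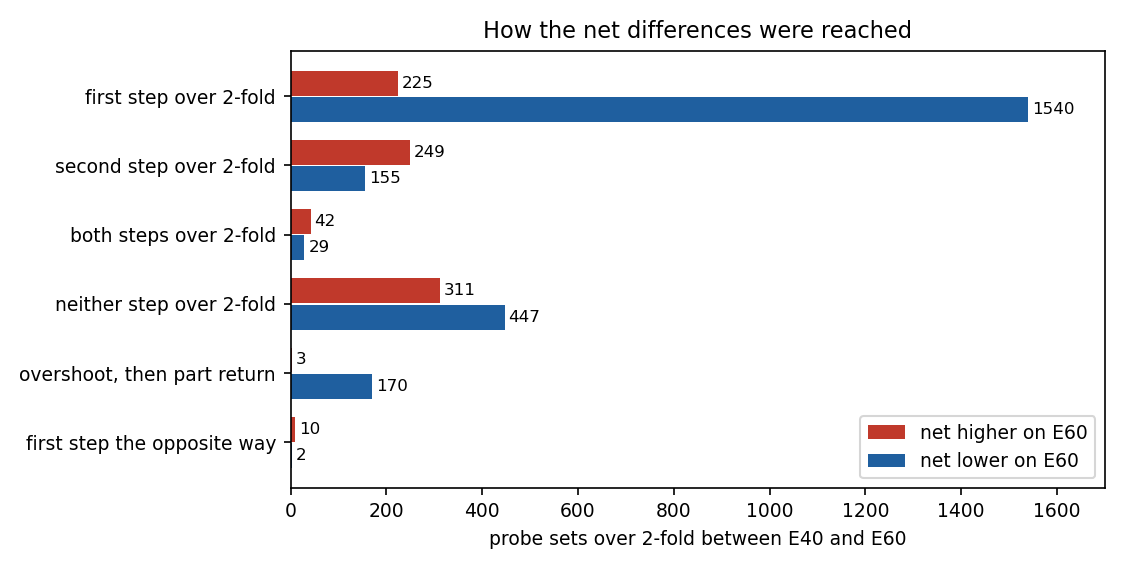
Bars give the number of probe sets (horizontal axis) over 2-fold higher (red) or lower (blue) on E60 than on E40, by which of the steps E40 to E50 and E50 to E60 exceeded 2-fold. Lower probe sets came mostly from the first step (1540), while higher ones were spread over the first step (225), the second step (249) and neither (311). All counts are as deposited.

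The largest net rises above the floor on both arrays followed mostly the first step or both. AMBN was 500.5-fold higher, MMP20 102-fold and CKMT1A, a mitochondrial creatine kinase, 82.9-fold (42.0, 899 and 3476). BAMBI, a decoy receptor of the BMP and TGF-beta pathway, had 132, 939 and 2701 on one probe set and 719.9, 3921 and 8817 on the other. SCIN, the actin-severing scinderin, had 47.8, 1806 and 1317, SATB1, a chromatin organiser, 31.8, 325 and 506, and HAPLN1, a link protein of hyaluronan matrix, 416, 3281 and 5119. SCIN, SATB1 and HAPLN1 thus reached most of their level by E50. CAPNS1, the small calpain subunit, was the exception among these, with 58.1, 99.2 and 884. The 10 largest net falls were muscle genes, cornified envelope genes and CST6, an epithelial cysteine protease inhibitor (1783, 109 and 32.4), besides a gene listed only as LOC396711, and each passed 2-fold in the first step.

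The 758 probe sets without a step over 2-fold, called gradual below, were 1.30% of all probe sets in the higher and 1.86% in the lower direction. All 3 signals were above the floor in 277 of the 311 and 402 of the 447. Because each step was limited to 2-fold, their net differences lay between 2-fold and 4-fold by construction, with a median log2 value of 1.16 in the higher and -1.17 in the lower group. The first step made up a median of 51.8% of the net difference in the higher group (quartiles 37.1% and 66.1%) and 55.0% in the lower (41.3% and 69.1%). Both steps exceeded 1.5-fold in 42 higher and 69 lower probe sets, while in 61 and 94 of them 1 step stayed under 1.2-fold and the other carried nearly the whole difference. Many lay close to a limit. A net difference of 2.0 to 2.2-fold was found in 142 higher and 195 lower probe sets, and 216 and 357 others without a step over 2-fold missed the limit at 1.8 to 2.0-fold. One step between 1.8 and 2.0-fold was found in 118 and 182 of them, and 77 and 134 others were left out for a step of 2.0 to 2.2-fold.

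**Figure D3:**
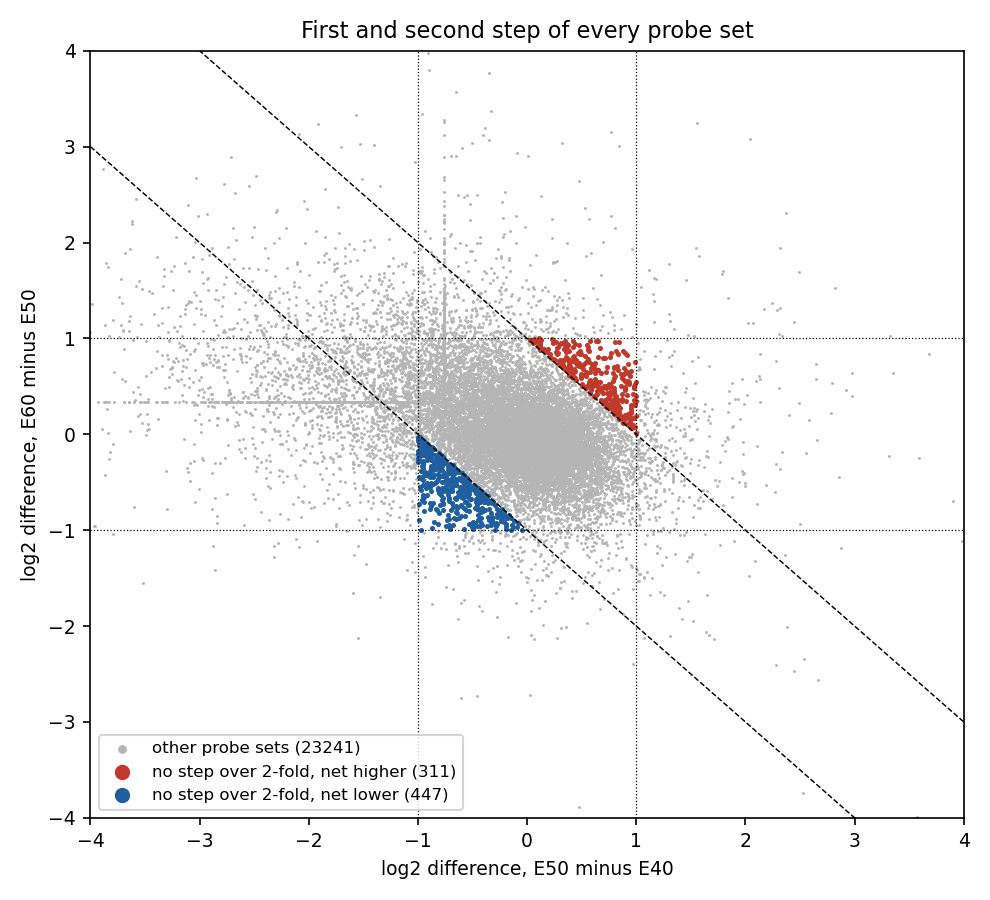
Each point is 1 of 23999 probe sets, with the first step (E50 minus E40, log2) on the horizontal and the second step (E60 minus E50, log2) on the vertical axis, and 108 points lie outside the axes. Dotted lines mark 2-fold in a step and dashed lines 2-fold in total, and the gradual probe sets fill the triangles between them (311 higher in red, 447 lower in blue). The straight rows of grey points are signals raised to the floor.

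Which probe sets were gradual depended on the scaling. All 311 higher gradual probe sets stayed over 2-fold higher in total with equal medians, and 298 did after quantile normalization, but 141 and 165 of them still had no step over 2-fold. Of the 447 lower ones, 110 and 206 stayed over 2-fold lower in total, and 89 and 185 still had no step over 2-fold. Under the housekeeping scaling 311 and 391 kept the net difference and 263 and 315 the gradual route. Equal medians and the housekeeping scaling shift every net difference upward, so the higher ones kept theirs under both by construction. The 12 largest gradual rises and the 12 largest gradual falls with a gene name all remained over 2-fold in total under each of the 3 scalings, but with equal medians, quantile normalization and the housekeeping scaling only 0, 3 and 8 of these rises and 8, 10 and 11 of these falls still had no step over 2-fold. A check that did not use the same probe set came from genes with several of them. Each gradual probe set was paired with every other probe set of its gene, where all 3 signals of both were above the floor. Gradual probe sets of 1 gene were thus paired in both directions, and pairings are not independent. In 180 of 235 pairings (76.6%) the other probe set moved the same way, and in 68 (28.9%) by over 2-fold. In 32 of these 68 it was gradual too, which puts it over 2-fold by the rule itself. In 5 of the 235 it moved over 2-fold the opposite way (2.13%). For probe sets with a step over 2-fold and a net difference under 4-fold the shares were 79.4%, 32.6% and 0.332%, and for probe sets within 2-fold they were 62.9%, 5.87% and 2.42%. The log2 difference varied between probe sets of 1 gene with an SD of 0.486 (1544 genes), which is a spread between probe sets on the same arrays and not between litters.

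The genes with the largest gradual rises had mixed roles. HS3ST3A1, a heparan sulfate sulfotransferase, had the largest, with 168, 301 and 587. KDELR3, a receptor that returns escaped chaperones from the Golgi to the endoplasmic reticulum, was measured above the floor by 2 gradual probe sets, with 249, 439 and 802 and with 1512, 2370.0 and 4146. AK3, a mitochondrial adenylate kinase, likewise had 2 (72.98, 145 and 244, and 56.3, 100.2 and 179), and its remaining probe set was under the floor on E40. RAB32, a small GTPase of organelle trafficking, had 913, 1735 and 2710.2. TAC3, the neurokinin B precursor, had 118, 223 and 370.4, and TINAGL1, a basement membrane glycoprotein, 95.8, 152 and 285. CA3, a carbonic anhydrase, was higher on 2 probe sets (409, 785 and 1196, and 897, 1578 and 1913). SMOX, spermine oxidase, rested on a dim probe set (49.1, 83.8 and 150.4) whose difference was lost with a floor at the 50th percentile. The E40 signals of AK3, TAC3 and TINAGL1 also lay under that floor (164 on E40), so their differences are smaller with it. In each gene named in this paragraph the E50 signal lay between those of E40 and E60, which the rule requires.

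The largest gradual fall was TFAP2B, a transcription factor of neural crest derivatives, with 1265, 702 and 372 (3.41-fold). CBLB, a ubiquitin ligase that dampens receptor signalling, followed with 875, 522 and 268, and ANTXR2, a collagen-binding receptor, with 768, 468 and 242. DAB2, an endocytic adaptor, had 118, 72.5 and 36.5, and IL1A, the cytokine interleukin 1 alpha, 101, 51.7 and 32.2. SHMT1, the cytosolic serine hydroxymethyltransferase that feeds one-carbon metabolism, had 493, 271 and 165. PHKA2, a regulatory subunit of phosphorylase kinase, had 472, 254 and 155. GLIPR2, a Golgi-associated protein, was lower on both of its probe sets, with 1025, 645 and 352 and with 825, 528 and 300.0. ACVR2A, an activin receptor, was lower on 2 probe sets (78.9, 44.6 and 25.9, and 163, 99.9 and 78.8). These genes fell short of 2-fold in both steps and lay on E50 between their E40 and E60 signals.

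**Figure D4:**
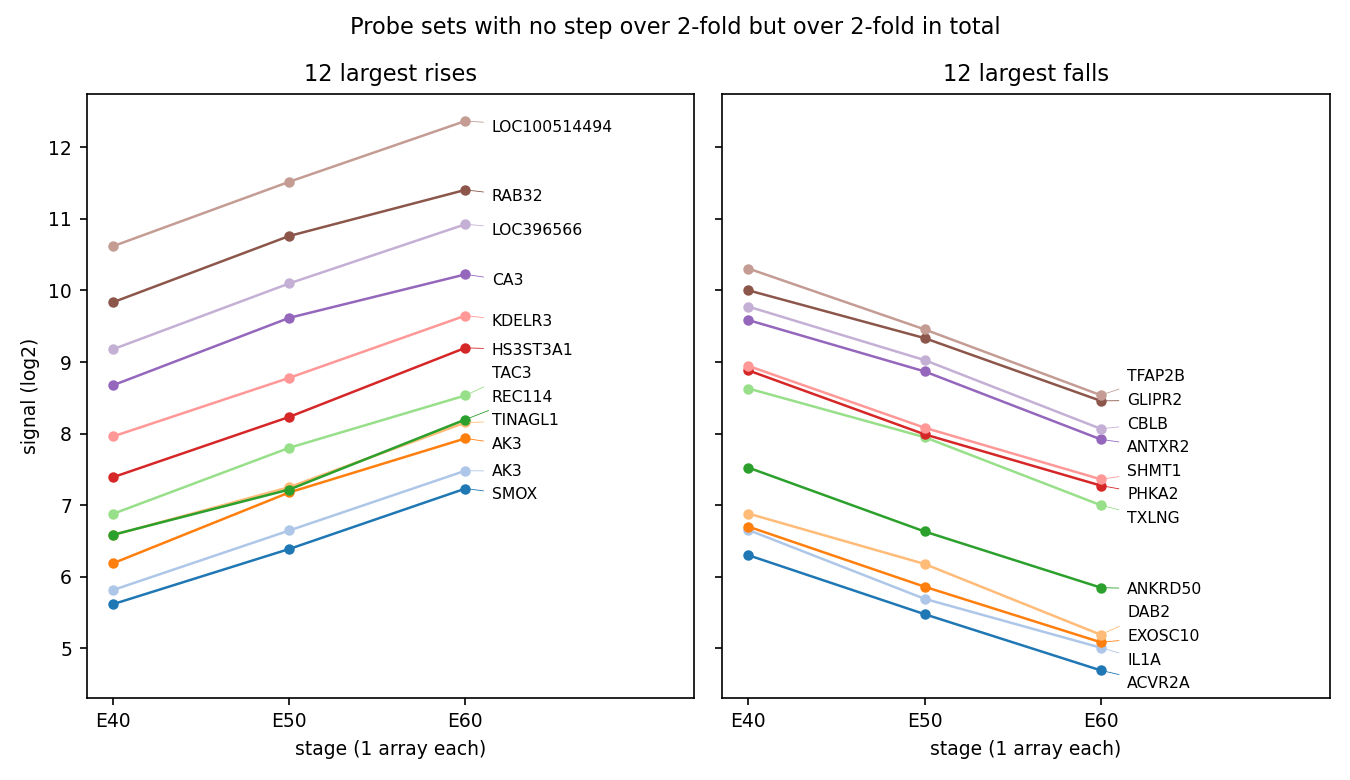
Lines give the log2 signal (vertical axis) of the 12 largest rises (left) and 12 largest falls (right) among named probe sets with no step over 2-fold and all 3 signals above the floor, on the E40, E50 and E60 arrays. The lines run nearly straight, as for HS3ST3A1 (168, 301 and 587) and TFAP2B (1265, 702 and 372), and AK3 appears with 2 probe sets. A large net difference with each step under 2-fold leaves little room for a bend, so the selection fixes this course.

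Some genes were gradual on more than 1 probe set. In 8 genes at least 2 probe sets were gradual rises, and in 6 genes at least 2 were gradual falls. Besides AK3, KDELR3 and CA3, the rises included CXCL14, a chemokine, at 5625, 10494 and 12105 and at 6577, 11722 and 14879.7, where both probe sets moved mainly in the first step. DNAJB9, a co-chaperone of the endoplasmic reticulum, moved in the second step, with 307, 334 and 615 and with 281, 291 and 563, and its other probe set differed by 0.71 (log2). RARRES1, a retinoic acid responder, had 2418, 4296 and 5156 and 685, 941 and 1554. RMND5A, a ubiquitin ligase subunit, had 110.0, 209 and 242 and a dimmer 34.8, 69.5 and 88.6. The falls included PPOX, an enzyme of heme synthesis, at 645, 350.4 and 278 and at 112, 59.4 and 44.8, and TNRC6B, a protein of microRNA silencing, at 54.7, 31.3 and 25.8 and at 54.0, 31.2 and 25.6. The 2 gradual probe sets of TNRC6B, and those of DNAJB9, differ in name by the suffix only and may not be independent readings. Such pairs also count in the agreement between probe sets given above.

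Several of these genes were not read alike by all their probe sets. HDAC6, a cytoplasmic deacetylase, had 3 gradual falls (699, 449 and 322 on the brightest), and of its other probe sets 1 had 114, 14.03 and 22.98 and the rest were dim or under the floor. B2M, the light chain of class I histocompatibility molecules, had 2 gradual rises (1388, 2468 and 2822, and 929, 1608 and 1901), while its brightest probe set had 21652, 20909.6 and 20211. ACTG1, gamma actin, had 2 gradual falls, but its brightest probe set had 20289, 19338 and 20178 and another had 2061, 93.7 and 66.4. For B2M and ACTG1 the gradual difference therefore does not hold for the brightest probe set. RAN and TAF1B each had gradual probe sets in both directions. TGFB2, a growth factor of the TGF-beta family, had 1 gradual fall (154, 95.9 and 68.5), 1 probe set over 2-fold higher (187, 185 and 407) and a brightest probe set within 2-fold (1321, 1119 and 1337). DICER1, the enzyme that cuts microRNA precursors, was lower on both of its probe sets, by one gradually (55.2, 39.9 and 26.2) and by the other in the second step (144, 129.99 and 59.96).

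For groups of genes, each gene was taken at its brightest probe set. Of 6197 measured named genes 275 (4.44%) were over 2-fold higher and 447 (7.21%) over 2-fold lower, 100 (1.61%) were gradual rises and 107 (1.73%) gradual falls, and the median log2 difference was -0.01. Under equal medians, quantile normalization and the housekeeping scaling that median was 0.30, 0.07 and 0.02, so list medians below are best set against it. Counts of list members over 2-fold, above and below, are best set against the 4.44% and 7.21%. Both steps pointed up in 18.4% of these genes and down in 18.7%, whatever their size.

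Genes of the endoplasmic reticulum and secretory pathway, which folds, modifies and ships exported proteins, were higher by small amounts. Of the 74 measured genes 5 were over 2-fold higher and 1 over 2-fold lower, but 59 were above 0, the median log2 difference was 0.32, and both steps pointed up in 40 (54.1%). That share was 66.2%, 47.3% and 45.9% under equal medians, quantile normalization and the housekeeping scaling, with 22.8%, 21.5% and 22.1% of all named genes. Of the 5 higher genes 4 were gradual, namely KDELR3, DNAJB9, SURF4 (a cargo receptor, 1573, 1988 and 3677) and SDF2L1 (an endoplasmic reticulum chaperone complex member, 165, 177 and 335). P4HA2, a collagen prolyl hydroxylase, was the remaining one, over 2-fold in the second step (1559, 1897 and 4066). XBP1, a transcription factor of secretory cells, had 3722, 4171 and 6073, within 2-fold. The lower gene was COPB2, a coat protein of retrograde vesicles, at 149.9, 93.1 and 56.6. Abundant chaperones were mixed, and the 4 named next were within 2-fold. CANX (5186, 5293 and 6303) and PDIA3 (4059, 4735 and 5306) were above 0, whereas CALR (3541, 3096 and 2588) was below 0 and HSPA5 (8905, 7882 and 8019) was below 0 as deposited but at 0.16 with equal medians.

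Lysosome and proton pump genes showed the same kind of difference. Of 36 genes 6 were over 2-fold higher and 0 lower, 5 of the 6 being gradual, and both steps pointed up in 20 (55.6%, or 47.2% to 63.9% under the other scalings). Of these 5 genes 3 encode subunits of the vacuolar proton pump, which acidifies lysosomes and other compartments: ATP6V1C1 had 872, 1231 and 2204, ATP6V1D 1021, 1215 and 2076, and ATP6V1H 734, 817 and 1508. The other two were the lysosomal proteases CTSH (713, 1325 and 1835) and CTSZ (533, 706 and 1105). ATP6V1D and ATP6V1H lay near the limit (log2 1.02 and 1.04). ATP6V1H had a step over 2-fold under the housekeeping scaling, and CTSH with equal medians. CTSC, a further protease of this group, exceeded 2-fold in the first step (1564, 3431 and 3325). CTSB and CTSD, 2 other cathepsins, stayed within 2-fold, at 6767, 7077 and 6631 for CTSB and 720.2, 804 and 671 for CTSD.

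Small differences in 1 direction were also seen where hardly any gene passed 2-fold. In oxidative phosphorylation 50 of 57 genes were above 0 (median 0.25), nearly all from the first step (median 0.32) and not the second (-0.07). NDUFA5, a complex I subunit, was the only gradual rise (514, 739.8 and 1043), and ATP5I, an ATP synthase subunit, was lower in both steps (1473, 689 and 258). Genes of cholesterol and fatty acid synthesis were above 0 in 17 of 21 (median 0.23) with 0 over 2-fold, and proteasome genes in 26 of 32 (median 0.14, or 0.02 after quantile normalization) with 0 over 2-fold.

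Genes of proliferating cells tended the other way. Of 30 DNA replication genes 0 differed over 2-fold, yet 23 were below 0 with a median log2 difference of -0.30, and the path was up in the first step (median 0.14) and down in the second (-0.37). MCM2, a subunit of the replicative helicase, had 1849.9, 2851 and 1507, and PCNA, the sliding clamp, 3909, 5431 and 4607. Mitosis genes were below 0 in 23 of 28 (median -0.28), again up in the first step (0.28) and down in the second (-0.41). HMMR, a spindle protein, was the gradual fall among them (125, 86.1 and 61.7), but its log2 difference of -1.02 became -0.71, -0.69 and -0.99 under equal medians, quantile normalization and the housekeeping scaling, within 2-fold under each. Chromatin modifiers were below 0 in 33 of 45 (median -0.27) and splicing factors in 45 of 59 (-0.23). EZH2, the methyltransferase of Polycomb repressive complex 2, was a gradual fall with 2178, 1573 and 961. Under equal medians the medians of these 4 lists turned to just above 0 (0.08 at most). Their distance from the median named gene was -0.225 to -0.299 as deposited and -0.214 to -0.414 after quantile normalization. Equal medians and the housekeeping scaling cannot change this distance, because a fixed shift cancels in it.

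Patterning and fetal growth genes were often lower on E60. Of 15 homeobox and patterning factors measured 7 were over 2-fold lower and 0 higher, against 7.21% and 4.44% of all named genes, with a median log2 difference of -0.92 that stayed below 0 under all scalings. TFAP2B was the 1 gradual fall. MEIS1, a homeobox cofactor, had 4013, 1275 and 636, and TFAP2C, a relative of TFAP2B, 993, 574 and 253. MEIS2 (669, 67.1 and 94.0), NR2F1 (625, 26.2 and 67.4) and PRRX1 (944, 275 and 207), factors of embryonic mesenchyme, dropped in the first step. TWIST2, a mesenchymal repressor, went the other way within 2-fold (343, 630.1 and 636). Of 11 fetal growth and imprinted genes 5 were lower and 0 higher (median -0.68). PEG10, a retrotransposon-derived imprinted gene, was a gradual fall (10486, 5821 and 4346), as was NNAT, neuronatin (594, 503 and 272). MEG3, an imprinted long noncoding RNA, had 1205, 116 and 129, and IGF2, insulin-like growth factor 2, had 2691, 871 and 1204. With equal medians 1 of these 11 genes remained over 2-fold lower, so the count for this list rests on the scaling.

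Collagens and fibrillar matrix genes were mostly lower (median -0.59), with a drop in the first step and a part return in the second (median 0.42). Of 28 genes 11 were over 2-fold lower and 4 higher, against 7.21% and 4.44% of all named genes. Gradual falls were COL6A3, a chain of microfibrillar collagen (5022, 2673 and 2364), COL15A1, a basement membrane zone collagen (1723, 952 and 855), and THBS3, a thrombospondin (167, 83.6 and 74.3). The gradual rises were FBLN1, the matrix glycoprotein fibulin 1 (4397, 6807 and 9730.0), and VTN, vitronectin, whose E40 signal was under the floor. With equal medians 4 were lower and 4 higher. In the matrix protease and inhibitor list, A2M, a broad protease inhibitor, had 60.3, 249 and 2097, while SERPINB1, an inhibitor of neutrophil proteases, was a gradual fall (1240.3, 808 and 521) and TFPI, an inhibitor of coagulation, a gradual rise (133, 205 and 303).

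Metabolic and stress genes contributed single members rather than groups. PSPH, the last enzyme of serine synthesis, was a gradual rise (867, 1484 and 1839), whereas SHMT1, which uses serine, was a gradual fall. PFKP, a phosphofructokinase, was a gradual rise (262, 456 and 594) and SLC2A1, the glucose transporter GLUT1, a gradual fall that lay at the limit (5787, 3889 and 2889.8). HSPB8 and HSPA2, chaperones of the cytosol, were gradual rises with 1071, 2071 and 2553 and with 167, 292 and 348. MYC, the proliferation-linked transcription factor, had 958, 598 and 426, and BMPR1B, a BMP receptor, 73.9, 48.7 and 34.9, both gradual falls. PPL, the desmosome-linked periplakin, was 1 more (2023, 1541 and 997), and ITGA8, an integrin chain, a gradual rise (73.2, 111 and 184). Of all 157 gradual falls with a gene name and 3 signals above the floor, 45 stayed over 2-fold lower with equal medians. After quantile normalization 87 did, and under the housekeeping scaling 140. Of the 128 such rises 128, 118 and 128 stayed over 2-fold higher. Equal medians and the housekeeping scaling move every net difference upward by a fixed amount, so no rise could drop out under them. Their counts therefore do not compare rises with falls. Under equal medians the gradual falls described above for SLC2A1, MYC, BMPR1B, PPL, EZH2, HMMR, PEG10, NNAT, COL6A3, COL15A1, THBS3, SERPINB1, TNRC6B, DICER1, TGFB2 and ACTG1, the brighter ones of PPOX and ACVR2A, 2 of the 3 of HDAC6 and those of RAN and TAF1B were within 2-fold in total. After quantile normalization the gradual rises of RARRES1, CXCL14 and B2M on 1 probe set each and that of FBLN1 were within 2-fold.

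**Figure D5:**
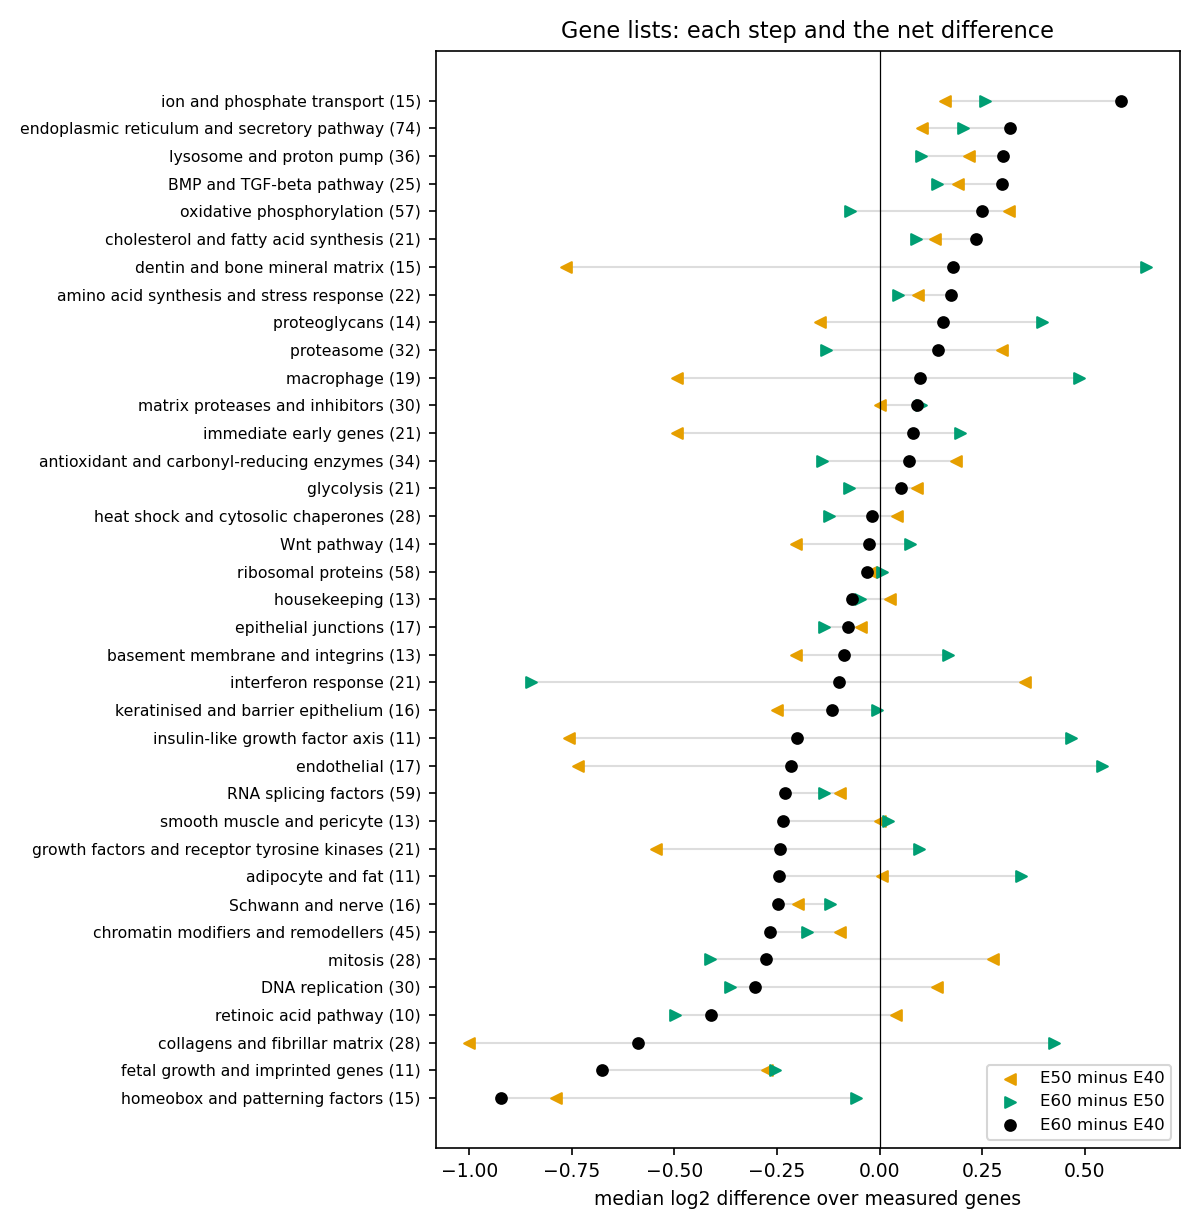
For each gene list with at least 10 measured genes (their number in brackets, skeletal muscle left out for its size), symbols give the median log2 difference of the first step (orange), the second step (green) and the whole period (black). Secretory pathway and lysosome genes have both steps and the net difference above 0, DNA replication and mitosis genes go up and then down, and endothelial genes go down (-0.74) and back (0.54).

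Some differences of the single steps were absent from the net comparison. Over the whole array 409 probe sets (1.70%) left by over 2-fold in the first step and came back by over 2-fold in the second to end within 2-fold, 354 of them being lower on E50 and 55 higher. These counts were read as deposited only, where E50 had the lowest median signal and floor. Endothelial genes had a median of -0.74 in the first step, 0.54 in the second and -0.22 in total (0.09 with equal medians and 0.15 after quantile normalization). Of 17 genes 2 were over 2-fold lower, against 7.21% of all named genes. These 2, TIE1 and NOS3, were within 2-fold with equal medians (-0.73 and -0.76) and after quantile normalization (-0.79 and -0.74). PECAM1, an endothelial adhesion molecule, had 1048, 529 and 902, and CDH5, the endothelial cadherin, 1070.5, 502 and 788. Macrophage genes went by -0.49 and 0.49, with 0 of 19 over 2-fold in total. FCGR3A, an immunoglobulin receptor, had 112, 48.5 and 115. ITGB3, the integrin beta 3 chain of osteoclasts and platelets, had 229, 75.03 and 216. Interferon response genes took the reverse course, up by 0.35 and down by 0.85, with 1 of 21 over 2-fold higher and 2 lower in total. As deposited, the E40 and E60 arrays were thus closer to each other than either was to E50 in the medians of these 3 lists. Whether this holds under the other scalings was not tested. Against the median named gene, the net macrophage median was 0.10 as deposited and 0.33 after quantile normalization. The E50 stage, litter and dissection cannot be told apart.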

How the data were processed

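RNA of pooled tooth germs, from 1 litter of Wuzhishan miniature pigs at each of E40, E50 and E60, had been hybridised to the Affymetrix Porcine Genome Array, with 1 array for each age. The authors deposited log2 values of MAS 5.0 signals, processed per the methods with Command Console 3.1 and GeneSpring 11.0. On the linear scale the mean after trimming 2% at each end was about equal on the 3 arrays (495 each), which fixes the scale that differences are read on. Signals at the low end are noisy in MAS 5.0, and a difference near the floor is less reliable than one between bright signals.

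The table held 24123 probe sets, and the 124 controls were dropped. Log2 signals under the 25th percentile of their own array (linear signal 29.3, 17.2 and 21.8 on E40, E50 and E60) were raised to it, and E60 minus E40 and both steps were taken. Gradual probe sets had each step under 2-fold and the net difference over 2-fold. No test was run. Gene symbols came from the platform annotation (10069 probe sets with 1 symbol, 198 with several, 13732 with none), of which 9961 matched the pig RefSeq gene table (Sscrofa11.1) by gene ID. Which probe sets cross-hybridise was not tested, and no genome sequence or coordinates were used.

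The comparison, the 46 gene lists and the rule for named genes were chosen with earlier results of these data known. Named genes were the 10 largest rises and falls with both signals above the floor, the 12 largest gradual rises and falls, genes with at least 2 gradual probe sets of 1 direction, up to 4 members of each list (brightest or largest difference), gradual list members and genes the study names. Other genes in the text (such as RAN, TAF1B, XBP1, CDH1, PECAM1, CDH5, CTSD, TWIST2, TFAP2C, MCM2 and PCNA) were chosen after their values were seen. Alternatives were other floors, 3 other scalings, other fold limits, 1 probe set per symbol and leaving out probe sets with shared-match suffixes. Leaving out the muscle and keratinised epithelium lists was a further one, not planned beforehand. The code was tested on simulated data. Python 3.11.15, pandas 2.3.3, NumPy 2.4.6, SciPy 1.17.1 and matplotlib 3.10.9 were used.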

Additional observations from a re-analysis of the deposited data

How the results depend on the processing

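The E60 versus E40 counts (840 higher, 2343 lower, 26.4% higher) and the gradual counts (311 higher, 447 lower) were recomputed with 1 choice changed at a time. With no floor the net counts were 2172 and 4177 (34.2% higher). With a floor at the 50th percentile they were 469 and 880 (34.8%), with 175 and 209 gradual. A common floor gave 29.0% higher and leaving out raised signals 28.7%. Equal medians gave 1628 and 1467 (52.6%, so the larger side turned) with 572 and 212 gradual, quantile normalization 1477 higher (47.5%) with 511 gradual rises, and the housekeeping scaling 28.6%. With 1 probe set per gene symbol, which leaves fewer probe sets, there were 275 and 447 (38.1%) with 100 and 107 gradual. At 3-fold the counts were 277 and 1009 (21.5%). A step limit of 1.8-fold left 193 and 265 gradual probe sets and a total over 2.5-fold left 71 and 106. Quantile normalization without raised signals, added after the data were seen, gave 280 gradual falls. The other 27 recomputed counts and shares stayed within 1.5 times (shares within the interval). Among them were the 5 without the muscle and keratinised epithelium lists, a setting that was also not planned. Of 414 recomputed list medians 410 moved by less than 1.5-fold, and of 1667 recomputed gene values 1575 did. Equal medians and the housekeeping scaling each shift every net difference by the same amount, which is under 1.5-fold. Their 46 list medians and 251 gene values each therefore stayed by construction and say nothing about robustness. With the floor at the 50th percentile FABP4 turned to -0.23, SMOX to -0.12 and SRGN to -0.056 (log2), and 52 of 251 gene values lay under that floor on both arrays and gave none. Among those without a value were the gradual falls of DAB2, IL1A, ACVR2A, COPB2, HMMR, BMPR1B, TNRC6B, TGFB2 and DICER1. No left-out replicate could be tried with 1 array per stage. No paired analysis was possible because each stage has 1 array and the labels carry no replicate numbers. Under the floor on both arrays lay 4889 probe sets. Both of their signals were raised, so each carried the same log2 difference of -0.42, which is set by the floors and is not a measurement.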

Other observations

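Retinoic acid genes moved in both directions between E40 and E60. ALDH1A1, an enzyme that makes retinoic acid, had signals of 800.5, 109 and 48.4 on E40, E50 and E60, while CYP26A1, which breaks it down, had 879.9, 3179 and 4354. RXRG, a retinoid receptor, had 264, 177 and 78.7. Of the 10 genes of this list 2 were over 2-fold higher and 2 lower, against 4.44% and 7.21% of all named genes. CYP26A1 and RARRES1 were the higher ones. RARRES1 was within 2-fold after quantile normalization (log2 0.98), which left CYP26A1 alone. ALDH1A1 and CYP26A1 kept their side of 2-fold under the equal median, quantile and housekeeping scalings.

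Nerve and Schwann cell genes also split. STMN2, a neuronal microtubule protein, was under the floor on E60 after 459.6 on E40, and NPY, a neuropeptide, had 281, 205 and 30.9. GAP43, a growth cone protein, had 166, 409 and 977, and S100B, a glial calcium-binding protein, 398, 849.8 and 876. Of 16 genes measured 3 were over 2-fold higher and 4 lower, against 4.44% and 7.21% of all named genes. No fibre or cell count accompanies these values.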
